A study of Homo sapiens with 9 samples.

Results

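The Hedgehog genes described here are 9 of the 60612 genes in the deposited table, taken by gene name. They are the ligands SHH, IHH and DHH, the ligand acylation and release genes HHAT, DISP1 and SCUBE2, and the receptor and effector genes PTCH1, SMO and GLI3. The set was drawn up with the response of SHH, IHH and SCUBE2 in these libraries already known, so the values of the 9 genes are given as a description, without p-values.

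RNA was sequenced from VCaP, an established line of human prostate cancer cells that carries the TMPRSS2-ERG fusion. Cells were transfected for 4 days with KMT2C siRNA 1, with KMT2C siRNA 2, or with a control siRNA (KMT2C normal per the labels), and 3 libraries were made per group from total RNA. KMT2C encodes a methyltransferase acting on lysine 4 of histone H3 (H3K4), a mark of enhancers and promoters. All groups were the same line, grown in serum-containing medium. Nothing in the sources used here says that the replicates were separate cultures, so the p-values measure only how far these samples spread, and that spread may be technical.

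Hedgehog ligands are secreted signals that are made as precursors, cut and modified with cholesterol, and given a fatty acid by HHAT. DISP1 and SCUBE2 release the lipid-bearing ligand from the producing cell. On the receiving cell the ligand binds PTCH1 and lifts its block on SMO, which acts at the primary cilium to switch GLI transcription factors from repressors to activators. GLI1 and PTCH1 are themselves classical targets of the activated pathway. In prostate, Hedgehog ligands are made by epithelium and are known to act on the surrounding stroma.

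The 250 bases before the annotated start are printed for SHH, IHH and SCUBE2, whose levels differed most between groups, and for the PTCH1 start that carried a match to the GLI motif. They come from RefSeq on GRCh38.p14, run 5′ to 3′ along the gene, and have motif matches in capitals. SHH lies at chr7:155812464-155812713, IHH at chr2:219060922-219061171, SCUBE2 at chr11:9091600-9091849 and PTCH1 at chr9:95509267-95509516, all on the minus strand.
SHH: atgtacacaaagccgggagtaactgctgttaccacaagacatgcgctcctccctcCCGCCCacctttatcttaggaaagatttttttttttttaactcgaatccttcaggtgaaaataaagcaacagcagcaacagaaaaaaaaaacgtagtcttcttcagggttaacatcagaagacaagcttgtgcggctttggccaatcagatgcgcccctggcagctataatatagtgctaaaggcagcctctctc
IHH: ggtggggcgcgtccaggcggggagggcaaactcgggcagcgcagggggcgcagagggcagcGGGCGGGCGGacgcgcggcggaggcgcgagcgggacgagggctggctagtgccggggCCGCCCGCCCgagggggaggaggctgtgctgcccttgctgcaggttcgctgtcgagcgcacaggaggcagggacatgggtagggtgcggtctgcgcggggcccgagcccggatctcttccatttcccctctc
SCUBE2: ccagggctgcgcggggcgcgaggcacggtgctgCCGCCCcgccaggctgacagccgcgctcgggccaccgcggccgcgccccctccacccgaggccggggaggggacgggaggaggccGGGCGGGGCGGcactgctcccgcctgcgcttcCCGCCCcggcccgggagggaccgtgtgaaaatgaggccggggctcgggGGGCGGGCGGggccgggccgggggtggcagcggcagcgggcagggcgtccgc
PTCH1: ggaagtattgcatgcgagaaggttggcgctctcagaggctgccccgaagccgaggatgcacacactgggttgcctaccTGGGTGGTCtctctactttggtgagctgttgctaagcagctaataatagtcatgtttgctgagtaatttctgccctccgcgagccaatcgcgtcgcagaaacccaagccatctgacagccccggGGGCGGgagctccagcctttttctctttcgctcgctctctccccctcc

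Capitals mark the GC box GGGCGG on either strand, except for the GLI motif GACCACCCA in PTCH1, which stands there as TGGGTGGTC on the printed strand, 172 bases before the start. The GLI motif was found in 0.199% of 35116 RefSeq promoters of this length, and the GC box in 42.6%. The windows of IHH and SCUBE2 were rich in CpG, with 29 and 36 CpG dinucleotides, more than 85.9% and 95.1% of all promoters held. The SHH window had 7, below the median of 11 over all promoters, and its GC content was 44.4%, against 75.6% for IHH and 83.6% for SCUBE2. IHH held 4 GC boxes in a pair of overlapping runs, SCUBE2 held 6, of which some overlap, and SHH held 1.

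No window of SHH, IHH or SCUBE2 matched the GLI motif, the FOXA motif TGTTTAC (2.98% of promoters), the ETS motif CCGGAAG (8.52%) or the TATA box TATAAA (10.7%), searched on both strands. The other 4 PTCH1 starts in RefSeq held no GLI match. The SCUBE2 start of RefSeq lies inside the span the deposited table gives for that gene. Promoters were matched for 8 of the 9 genes, GLI3 being the other.

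The targeted gene was lower in every knockdown library. KMT2C (ENSG00000055609, GRCh38 chromosome 7, 152134922 to 152436003) stood at 1.54, 1.80 and 2.28 FPKM with siRNA 1, at 1.72, 1.64 and 1.73 FPKM with siRNA 2, and at 13.7, 12.1 and 12.9 FPKM in control cells. FPKM counts fragments per kilobase of a transcript after scaling to library depth. The mean KMT2C level was thus 14.5% and 13.1% of the control level, and the difference between siRNA 1 and siRNA 2 on the log2 scale was 0.17 ± 0.12 (SE). Total estimated counts per library ranged from 58462215 to 70726213, where about 4 counts stand for 1 sequenced fragment. All 11 luminal prostate and VCaP markers, among them KLK3 and EPCAM, were at 1 FPKM or more in every library. Their summed level was 975.9 to 1014.4 FPKM with siRNA 1, 961.8 to 986.8 FPKM with siRNA 2 and 1803.5 to 1898.3 FPKM in control cells, and its part in the results below was not tested. Summed levels of 8 fibroblast markers were 0.695 to 0.927 FPKM with siRNA 1, 7.18 to 12.6 FPKM with siRNA 2 and 1.59 to 2.68 FPKM in control cells. Most of the siRNA 2 sum was LUM, which averaged 9.74 ± 2.51 FPKM there (SD, n = 3), while FAP was at 0 in siRNA 1 and control libraries and PDGFRB at 0 in siRNA 2 libraries. In such bulk RNA, fewer cells expressing a gene and less RNA per cell cannot be told apart.

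Among the ligands, SHH and IHH were strongly expressed in control VCaP cells and far lower with each KMT2C siRNA, but not in the same order. SHH (ENSG00000164690, chromosome 7, 155799980 to 155812463), the ligand best known from limb and neural tube patterning, stood at 0.766, 0.475 and 0.406 FPKM with siRNA 1. It stood at 7.22, 8.13 and 7.87 FPKM with siRNA 2, and at 86.0, 79.1 and 101.1 FPKM in control cells. The 3 groups did not overlap, with siRNA 1 lowest and control highest. Of all 12830 genes that passed the expression filter, 24.5% had every siRNA 1 library below every control library, and 27.6% had every siRNA 2 library below control. Between the siRNAs, 27.4% had every siRNA 1 library below siRNA 2 and 24.9% had it above. Relative to control the mean was 0.619% with siRNA 1 and 8.72% with siRNA 2. The fitted log2 differences were -7.35 ± 0.27 and -3.57 ± 0.22 (SE), and siRNA 1 minus siRNA 2 was -3.78 ± 0.23. Without replicate 1 of siRNA 1, the highest library of its group, the first of these was -7.68.

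IHH (ENSG00000163501, chromosome 2, 219054424 to 219060921), which in cartilage paces the maturation of chondrocytes, showed the other order. Its level was 1.66, 2.17 and 1.51 FPKM with siRNA 1, then 0.399, 0.338 and 0.479 FPKM with siRNA 2, against 32.5, 30.7 and 45.6 FPKM in control cells. Again no group overlapped another, but here siRNA 2 was lowest. The means were 4.91% and 1.12% of control, or -4.37 ± 0.22 and -6.53 ± 0.25 on the log2 scale, and siRNA 1 minus siRNA 2 was 2.15 ± 0.22.

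DHH (ENSG00000139549, chromosome 12, 49086656 to 49094801), the ligand of Sertoli and Schwann cells, was close to undetected. It had 8, 0 and 4 counts with siRNA 1, 7, 0 and 0 counts with siRNA 2, and 0, 0 and 4 counts in control cells, which is no more than about 2 fragments in any library. It was not tested, and no difference was detectable at this depth. An exon of DHH also overlaps AC011603.1 on the opposite strand.

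**Figure D1:**
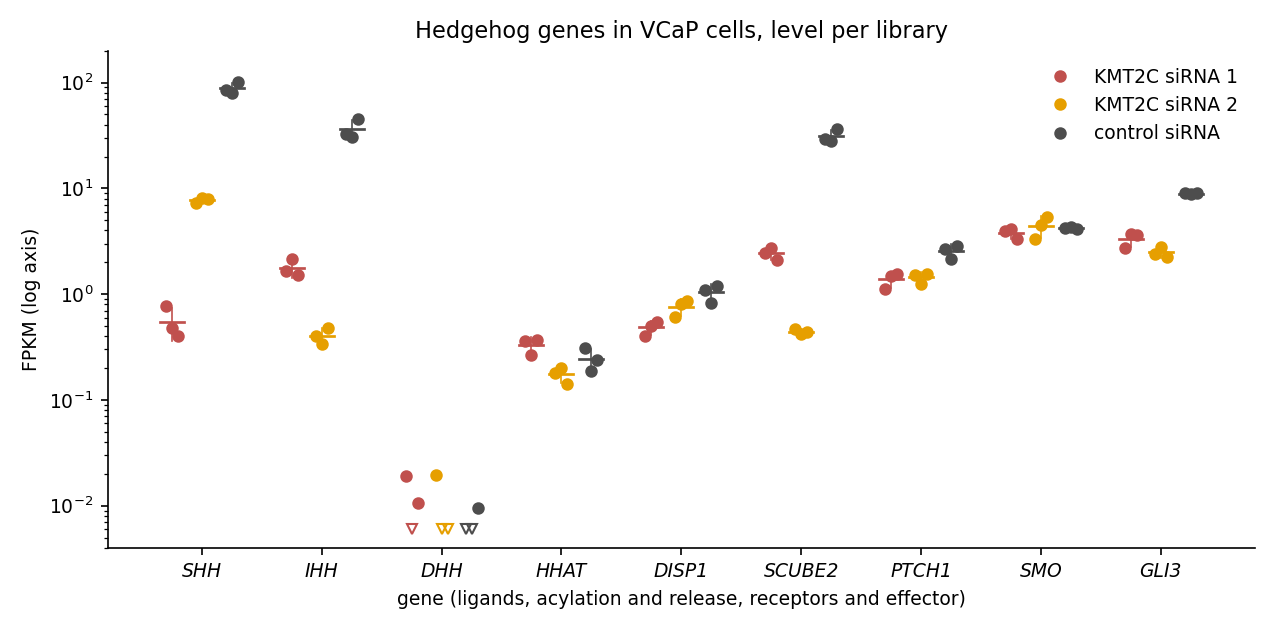
Level of each of the 9 Hedgehog genes in each library (points) with the group mean and SD (bars, n = 3), in FPKM on a log axis, for KMT2C siRNA 1, KMT2C siRNA 2 and control siRNA. Open triangles at the foot are libraries with 0 counts; SHH, IHH and SCUBE2 stand far below control in both knockdown groups, and SMO overlaps it.

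Per length, the summed ligand level was 2.44, 2.65 and 1.93 FPKM with siRNA 1, 7.64, 8.46 and 8.35 FPKM with siRNA 2, and 118.5, 109.7 and 146.7 FPKM in control cells. Because SHH and IHH moved by different amounts, the balance between them differed between groups. The FPKM ratio of SHH to IHH averaged 0.317 ± 0.129 with siRNA 1, 19.5 ± 3.99 with siRNA 2 and 2.48 ± 0.231 in control cells (SD, n = 3). IHH was thus the more abundant ligand transcript in each siRNA 1 library, and SHH in each siRNA 2 and control library.

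**Figure D2:**
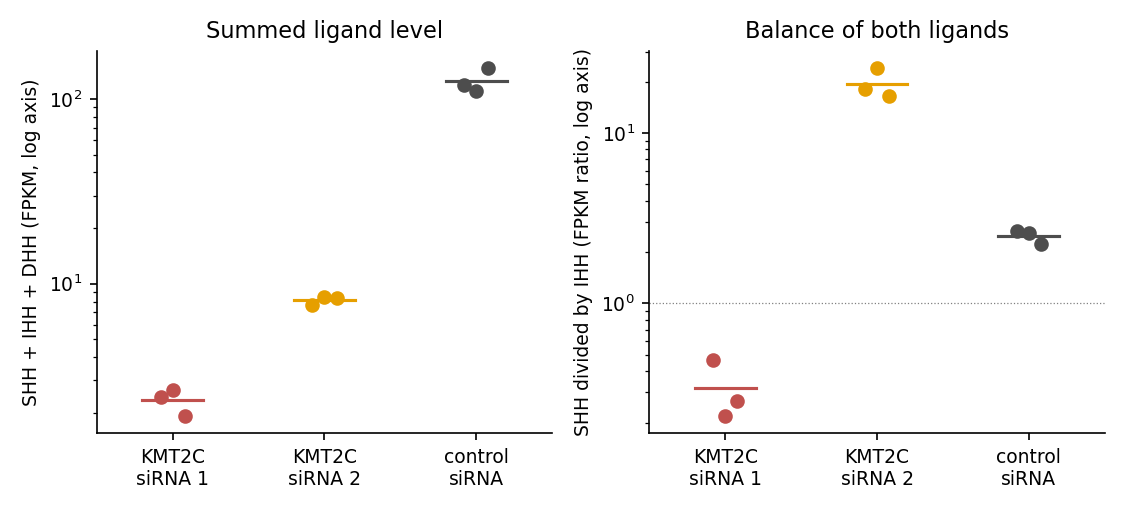
Left, summed FPKM of SHH, IHH and DHH per library; right, the FPKM ratio of SHH to IHH per library; both on log axes, with a line at the group mean (n = 3). The ratio lies between 0.219 and 0.463 with siRNA 1, between 16.4 and 24.0 with siRNA 2, and between 2.22 and 2.65 in control cells.

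Of the acylation and release genes, SCUBE2 was the most abundant in control and siRNA 1 libraries and differed in step with IHH. With siRNA 2 it lay below DISP1. SCUBE2 (ENSG00000175356, chromosome 11, 9019498 to 9138114) encodes a secreted protein that takes up the lipid-modified ligand. It stood at 2.46, 2.74 and 2.09 FPKM with siRNA 1, at 0.471, 0.422 and 0.438 FPKM with siRNA 2, and at 29.6, 28.1 and 36.6 FPKM in control cells. As for IHH, no groups overlapped, siRNA 2 was lowest, and replicate 3 was the highest control library, which held for SHH too. The mean SCUBE2 level was 7.72% and 1.41% of control, or -3.71 ± 0.14 and -6.19 ± 0.16 on the log2 scale, and siRNA 1 minus siRNA 2 was 2.47 ± 0.14. The FPKM ratio of SCUBE2 to IHH averaged 1.38 ± 0.115 with siRNA 1, 1.11 ± 0.177 with siRNA 2 and 0.878 ± 0.0638 in control cells (SD, n = 3), a much narrower range than the ratio of SHH to IHH. Pearson's r over the 9 libraries was taken on log2 counts, scaled by library totals adjusted with TMM factors (a scaling between libraries). It was 0.996 between IHH and SCUBE2, 0.641 between SHH and IHH and 0.581 between SHH and SCUBE2. These are descriptions of 3 groups that stand far apart, not of 9 independent points.

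DISP1 (ENSG00000154309, chromosome 1, 222815022 to 223005974), the transporter-like protein that exports the ligand, was expressed near 1 FPKM. Its values were 0.401, 0.505 and 0.550 FPKM with siRNA 1, 0.606, 0.806 and 0.860 FPKM with siRNA 2, and 1.10, 0.819 and 1.20 FPKM in control cells. The siRNA 1 libraries lay below control, whereas siRNA 2 overlapped it. Exons of DISP1 also overlap AC093152.1 on the same strand. DISP1 missed the expression filter of the main fit, which asked for 1 FPKM or more in 3 or more libraries. With the looser filter of edgeR's filterByExpr, where 14.2% of genes were called lower with siRNA 1 and 19.4% with siRNA 2, the log2 difference was -1.12 ± 0.19 with siRNA 1 and -0.56 ± 0.19 with siRNA 2.

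HHAT (ENSG00000054392, chromosome 1, 210328252 to 210676296), the acyltransferase, was lower still, at 0.362, 0.264 and 0.369 FPKM with siRNA 1, 0.180, 0.201 and 0.142 FPKM with siRNA 2, and 0.309, 0.189 and 0.239 FPKM in control cells. Each knockdown group overlapped control. The log2 differences with the looser filter were 0.40 ± 0.25 and -0.60 ± 0.25, and siRNA 1 minus siRNA 2, whose libraries did not overlap, was 0.99 ± 0.25.

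The receptor and effector genes differed much less than the ligands. PTCH1 (ENSG00000185920, chromosome 9, 95442980 to 95517057), the ligand receptor, stood at 1.11, 1.49 and 1.55 FPKM with siRNA 1, at 1.53, 1.26 and 1.55 FPKM with siRNA 2, and at 2.70, 2.15 and 2.87 FPKM in control cells. Both knockdown groups lay below control and overlapped each other, at 53.7% and 56.3% of the control mean. The log2 differences were -0.92 ± 0.16 and -0.88 ± 0.16, and siRNA 1 minus siRNA 2 was -0.04 ± 0.16.

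SMO (ENSG00000128602, chromosome 7, 129188633 to 129213545), the signal transducer that PTCH1 holds in check, had 3.95, 4.16 and 3.29 FPKM with siRNA 1, 3.31, 4.50 and 5.37 FPKM with siRNA 2, and 4.18, 4.27 and 4.09 FPKM in control cells. Both knockdown groups overlapped control, the siRNA 2 libraries spreading on both sides of control. The log2 differences were -0.16 ± 0.17 and 0.02 ± 0.17.

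GLI3 (ENSG00000106571, chromosome 7, 41960949 to 42237209), the GLI factor that acts mainly as a repressor when no ligand is present, had 2.72, 3.74 and 3.61 FPKM with siRNA 1, 2.42, 2.80 and 2.26 FPKM with siRNA 2, and 9.07, 8.78 and 8.95 FPKM in control cells. Every knockdown library was below every control library. The means were 37.6% and 27.9% of control, or -1.44 ± 0.12 and -1.90 ± 0.12 on the log2 scale, with 0.46 ± 0.12 for siRNA 1 minus siRNA 2.

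**Figure D3:**
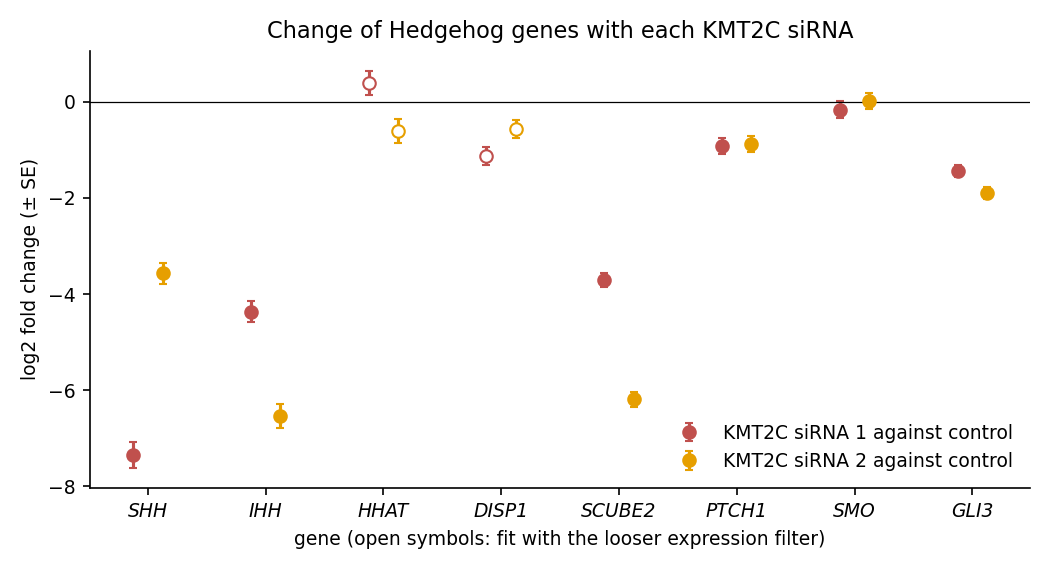
Log2 difference from control (± SE) of 8 Hedgehog genes with KMT2C siRNA 1 and siRNA 2, from edgeR; open symbols are HHAT and DISP1, fitted with the looser filter. SHH is lower with siRNA 1 (-7.35) than with siRNA 2 (-3.57), and IHH and SCUBE2 are lower with siRNA 2 (-6.53 and -6.19).

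Of the 9 genes, 6 passed the filter, and 5 of these 6, all but SMO, were called lower at an adjusted p of 0.05 with each siRNA. Among all 12830 tested genes 20.5% were called lower with siRNA 1, 24.9% with siRNA 2 and 12.6% with each of them. Between siRNA 1 and siRNA 2, 4 of the 6 were called, 3 higher and 1 lower, where 39.5% of all genes were called, 20.6% higher and 18.9% lower. As the set was chosen on these contrasts, nothing is read from these counts. By size, 1 tested gene had a lower log2 difference than SHH with siRNA 1, and 4 and 7 genes had a lower one than IHH and SCUBE2 with siRNA 2.

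The order of expression among the genes changed with the group. In control cells SHH led by mean FPKM, at rank 320 of 60612, followed by IHH and SCUBE2, whose libraries overlapped, then GLI3, SMO, PTCH1, DISP1, HHAT and DHH without further overlap. With siRNA 1 the order was SMO, GLI3, SCUBE2, IHH and PTCH1, each overlapping the next, followed by SHH and DISP1, which overlapped, then HHAT and DHH. SHH was then at rank 13770. With siRNA 2, SHH again came first, at rank 4536, ahead of SMO, GLI3, PTCH1 and DISP1, with SCUBE2 and IHH overlapping below them.

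The rest of the pathway was read from lists of 76 further genes, of which 52 were tested. With siRNA 1, 9 rose and 18 fell, and with siRNA 2, 18 rose and 17 fell. Over all tested genes 41.7% were called with siRNA 1 and 49.3% with siRNA 2. Genes called higher made up 21.2% and 24.4% of all tested genes, and 13.2% were higher with each. These 52 were not chosen for their values, but the lists were written with some results of these data known.

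Of the targets used as readouts of pathway activity, PTCH1 was detected in every library, as given above, while GLI1 and HHIP were at or near the limit of detection in every group. GLI1, the target most often used as a readout, had 4, 0 and 0 counts with siRNA 1, 5, 3 and 0 counts with siRNA 2, and no counts in the 3 control libraries, which allows up to 3 fragments in each. HHIP, a decoy receptor that is also a target, had 24, 0 and 4 counts with siRNA 1, 4, 4 and 0 with siRNA 2, and 0, 1 and 4 in control cells. An exon of GLI1 overlaps ARHGAP9 and HHIP overlaps HHIP-AS1, both on the opposite strand. High ligand transcript in control cells thus stood beside no counts of GLI1. Of 17 genes known as targets in other tissues 5 were tested, with 1 higher and 1 lower with siRNA 1 and 2 each way with siRNA 2. CCND1, the cyclin that drives entry into S phase, fell with each siRNA, by 0.64 and 0.82 on the log2 scale (adjusted p = 6.2e-05 and 7.28e-06), with an exon overlap with LTO1 on the opposite strand.

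Among 5 other release genes none passed the main filter. With the looser filter, DISP2 fell with each siRNA, by 1.06 ± 0.30 and 1.55 ± 0.31 on the log2 scale (adjusted p = 0.029 and 0.00394), at mean levels under 0.1 FPKM. SCUBE1 and SCUBE3, relatives of SCUBE2, were also expressed far below it. SCUBE3 fell with siRNA 1 (log2 -1.13 ± 0.35, adjusted p = 0.0386), and SCUBE1 rose with siRNA 2 (1.36 ± 0.45, adjusted p = 0.0424), where this filter called 13.3% of genes higher with siRNA 1 and 16.0% with siRNA 2. Summed over each group, SCUBE3 had 75 counts with siRNA 1 and 159 in control cells. SCUBE1 had 298 with siRNA 2 and 108 in control cells, at about 4 counts per fragment. The fit on counts divided by 4 took only genes that passed the main filter, so it did not cover these calls.

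Of 8 other receptors and coreceptors 2 passed the filter, and they went opposite ways. CDON, a coreceptor that binds ligand together with PTCH1, averaged 3.06 ± 0.939 FPKM with siRNA 1, 2.87 ± 0.0505 FPKM with siRNA 2 and 5.75 ± 0.146 FPKM in control cells (SD, n = 3). It fell by 0.94 ± 0.18 and 1.06 ± 0.18 on the log2 scale (adjusted p = 0.00305 and 0.00121). GPC6, a glypican of the cell surface, averaged 1.07 ± 0.0469 FPKM with siRNA 1, 3.56 ± 0.193 FPKM with siRNA 2 and 0.595 ± 0.0761 FPKM in control cells, and rose by 0.82 ± 0.11 and 2.52 ± 0.12 (adjusted p = 0.00058 and 1.02e-06). With the looser filter BOC, the paralog of CDON, fell with siRNA 1 (log2 -1.92 ± 0.37, adjusted p = 0.00433), at a mean of 0.0629 FPKM against 0.234 FPKM in control cells.

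Of 18 GLI factors and regulators outside the 9 genes 16 were tested. With siRNA 1, 1 rose and 8 fell, and with siRNA 2, 2 rose and 8 fell, with list medians of -0.25 and -0.26 against 0.01 and 0.02 over all tested genes. GLI2, the main activator of the family, was below the main filter and fell with the looser one, by 2.07 ± 0.29 and 1.29 ± 0.28 on the log2 scale (adjusted p = 0.00081 and 0.00606). It stood at 0.0539 FPKM with siRNA 1, 0.0974 FPKM with siRNA 2 and 0.222 FPKM in control cells. SUFU, the cytoplasmic inhibitor of GLI proteins, fell with siRNA 2 (-0.75 ± 0.10, adjusted p = 0.000346) and was at -0.20 ± 0.10 with siRNA 1 (adjusted p = 0.139), a difference between the siRNAs of 0.55 ± 0.10 (adjusted p = 0.0029).

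Between siRNA 1 and siRNA 2, 6 of the 16 were called higher, 4 lower and 6 were not called. Among kinases and ligase adaptors that mark GLI proteins for processing into repressors, BTRC and CSNK1A1 were not called, at -0.05 ± 0.08 and 0.09 ± 0.08 (adjusted p = 0.642 and 0.401), and others were. Against control both were called lower with each siRNA. BTRC stood at -0.32 ± 0.08 and -0.27 ± 0.08 (adjusted p = 0.0133 and 0.0246), and CSNK1A1 at -0.25 ± 0.08 and -0.34 ± 0.08 (adjusted p = 0.0258 and 0.00534). Exons of CSNK1A1 overlap AC021078.1 on the same strand. PRKACB, a catalytic subunit of protein kinase A, averaged 12.2 ± 1.11 FPKM with siRNA 1, 2.29 ± 0.181 FPKM with siRNA 2 and 10.3 ± 1.48 FPKM in control cells. It fell with siRNA 2 (-2.22 ± 0.12, adjusted p = 1.98e-06), and siRNA 1 minus siRNA 2 was 2.44 ± 0.12 (adjusted p = 3.55e-06). Its paralog PRKACA fell by 1.23 ± 0.08 with siRNA 2 (adjusted p = 6.84e-06), and FBXW11, an F-box protein that recognises phosphorylated GLI, by 1.44 ± 0.06 (adjusted p = 9.19e-07). With siRNA 1 these stood at -0.29 ± 0.08 and -0.31 ± 0.06 (adjusted p = 0.0212 and 0.00448), and the PRKACA call was lost without replicate 1 or 3 of siRNA 1 or replicate 2 of control (adjusted p = 0.0552, 0.0613 and 0.0706). Between the siRNAs PRKACA differed by 0.95 ± 0.08 and FBXW11 by 1.13 ± 0.06 (adjusted p = 4.77e-05 and 5.88e-06). GSK3B and DYRK2, kinases of GLI proteins, fell with siRNA 1 (-0.42 ± 0.08 and -0.60 ± 0.08, adjusted p = 0.00363 and 0.000391) and stood at 0.09 ± 0.08 and -0.03 ± 0.07 with siRNA 2, and the differences between the siRNAs were -0.51 ± 0.08 and -0.57 ± 0.08 (adjusted p = 0.00138 and 0.00046). KIF7, the ciliary kinesin that positions GLI proteins, fell by 0.60 ± 0.08 with siRNA 1 (adjusted p = 0.000497), and by 0.28 ± 0.08 with siRNA 2 (adjusted p = 0.0155, or 0.0537 without replicate 3 of siRNA 2).

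Primary cilium genes, on which SMO signalling depends, rose mainly with siRNA 2. Of 17 tested, 11 rose and 2 fell with siRNA 2, where 24.4% of all tested genes were called higher, while 3 rose and 4 fell with siRNA 1. In the direct contrast 13 of the 17 were called lower with siRNA 1 than with siRNA 2 and 1 was called higher. Of all tested genes, 18.9% were called lower in that contrast and 20.6% higher. The list median was -0.62 against 0.00 over all tested genes. IFT122, of the retrograde transport complex, averaged 1.55 ± 0.108 FPKM with siRNA 1, 3.99 ± 0.115 FPKM with siRNA 2 and 1.44 ± 0.194 FPKM in control cells, with log2 differences of 0.09 ± 0.10 and 1.41 ± 0.10 (adjusted p = 0.544 and 1.17e-05). WDR19, of the same complex, rose by 1.28 ± 0.11 with siRNA 2 (adjusted p = 2.02e-05) and stood at 0.03 ± 0.10 with siRNA 1, and the ciliogenesis kinase gene TTBK2 rose by 1.21 ± 0.11 (adjusted p = 3.31e-05) and stood at 0.04 ± 0.11. Exons of IFT122 overlap MBD4 on the opposite strand, those of TTBK2 overlap KRT8P50 on the same strand, and WDR19 has no such overlap. KIF3A, a subunit of the anterograde motor, fell with siRNA 1 (-0.51 ± 0.09, adjusted p = 0.00204).

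**Figure D4:**
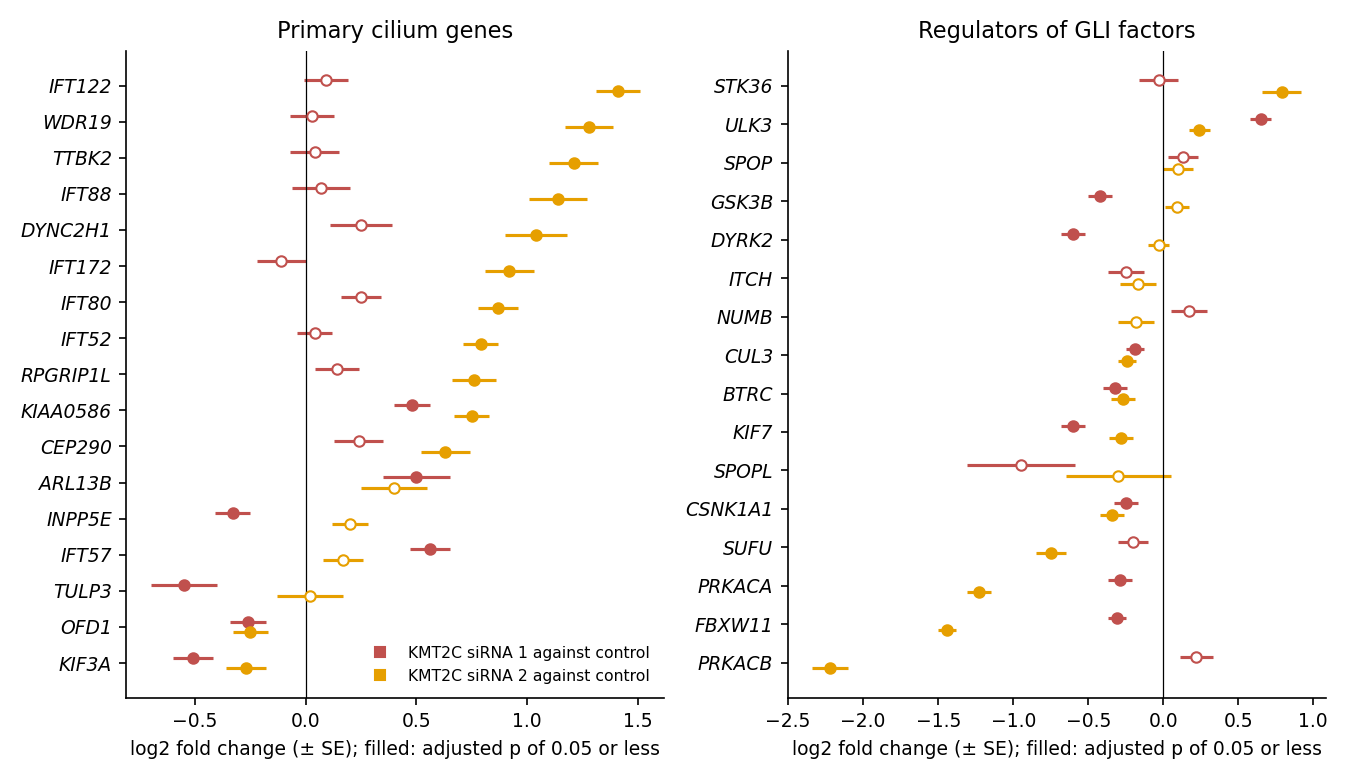
Log2 difference from control (± SE, edgeR) of primary cilium genes (left) and regulators of GLI factors (right), with KMT2C siRNA 1 above siRNA 2 on each row; filled points have an adjusted p of 0.05 or less. On the left most siRNA 2 points lie to the right of 0, IFT122 at 1.41 being highest, and most siRNA 1 points lie near 0.

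Of 14 genes that act on SMO trafficking and its attenuation, 12 were tested, with 3 higher and 4 lower with siRNA 1 and 2 higher and 4 lower with siRNA 2. GRK3, a receptor kinase, and ARRB1, an arrestin, fell with siRNA 2 (-1.23 ± 0.09 and -1.37 ± 0.19, adjusted p = 1.02e-05 and 0.000382). With siRNA 1 they stood at -0.36 ± 0.09 and -0.52 ± 0.18 (adjusted p = 0.0114 and 0.0517). SMURF2, a ubiquitin ligase reported to act on PTCH1, fell with each siRNA, by 0.54 ± 0.10 and 0.72 ± 0.10 (adjusted p = 0.00287 and 0.000437), with exons that overlap CEP95 on the opposite strand.

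Genes next to the 9 were read from the same fit, to show whether a low level was shared along the chromosome. Distances in the text are gaps between the nearest ends of the genes. Transcription starts can lie much further apart, at 99.9 kb for NHEJ1 and IHH and 127.2 kb for DENND5A and SCUBE2. Within 500 kb lay 86 tested genes, of which 39.5% were called with siRNA 1 and 44.2% with siRNA 2, close to the shares over all tested genes. Over all tested genes, 21.2% were called higher and 20.5% lower with siRNA 1, and 24.4% higher and 24.9% lower with siRNA 2. The picture differed from gene to gene.

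Around SHH 5 genes were tested, of which 2 rose and none fell with siRNA 1, and 3 rose and none fell with siRNA 2, at an adjusted p of 0.05. The nearest, RBM33, 18.5 kb away, was at -0.02 ± 0.48 and -0.15 ± 0.48 (adjusted p = 0.98 and 0.823), and EN2, a homeobox gene 335.1 kb away named after its values were seen, rose with siRNA 2 (0.49 ± 0.10, adjusted p = 0.00364). KMT2C itself is on the same chromosome, 3.36 Mb from SHH, and of 13 tested genes between them 4 rose and 2 fell with siRNA 1 and 7 rose and 1 fell with siRNA 2.

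Next to IHH, NHEJ1, a DNA end-joining factor 8.44 kb away, fell with each siRNA and more with siRNA 2, as IHH did. Exons of NHEJ1 overlap AC068946.1 on the same strand. NHEJ1 averaged 2.68 ± 0.0886 FPKM with siRNA 1, 1.34 ± 0.0753 FPKM with siRNA 2 and 6.21 ± 0.225 FPKM in control cells, or -1.24 ± 0.07 and -2.27 ± 0.08 on the log2 scale (adjusted p = 9.15e-06 and 2.89e-07), and siRNA 1 minus siRNA 2 was 1.03 ± 0.07 (adjusted p = 1.6e-05). Of 24 tested neighbours of IHH, 6 fell and 1 rose with siRNA 1, and 12 fell and 1 rose with siRNA 2. One of these is MIR3131, which lies inside IHH, so reads of the pair cannot be told apart.

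SCUBE2 had a similar neighbour in NRIP3, 15.4 kb away, which averaged 5.71 ± 0.189 FPKM with siRNA 1, 2.71 ± 0.304 FPKM with siRNA 2 and 44.9 ± 6.97 FPKM in control cells. NRIP3 fell by 3.00 ± 0.13 and 4.11 ± 0.14 on the log2 scale (adjusted p = 3.39e-06 and 2.89e-07), and siRNA 1 minus siRNA 2 was 1.10 ± 0.12 (adjusted p = 0.000203). DENND5A, 0.711 kb away on the other side, was at 0.24 ± 0.13 and 0.31 ± 0.13 (adjusted p = 0.172 and 0.0778). Of 13 tested neighbours of SCUBE2, 3 fell and 2 rose with each siRNA.

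Most neighbours of DISP1 were lower too. Of 5 tested, 4 fell with each siRNA, led by AIDA, which averaged 114.0 ± 29.5 FPKM with siRNA 1, 30.6 ± 1.80 FPKM with siRNA 2 and 406.2 ± 87.5 FPKM in control cells. AIDA fell by 1.86 ± 0.20 and 3.79 ± 0.22 (adjusted p = 0.000182 and 3e-06). DISP1 itself showed the other order, at -1.12 ± 0.19 with siRNA 1 and -0.56 ± 0.19 with siRNA 2. BROX fell by 1.28 ± 0.29 and 2.15 ± 0.30 (adjusted p = 0.00802 and 0.000443). Its exons overlap AIDA on the opposite strand where the ends of the genes meet. Reads in that shared stretch cannot be told apart if counting ignored strand, and the use of strand is not given.

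**Figure D5:**
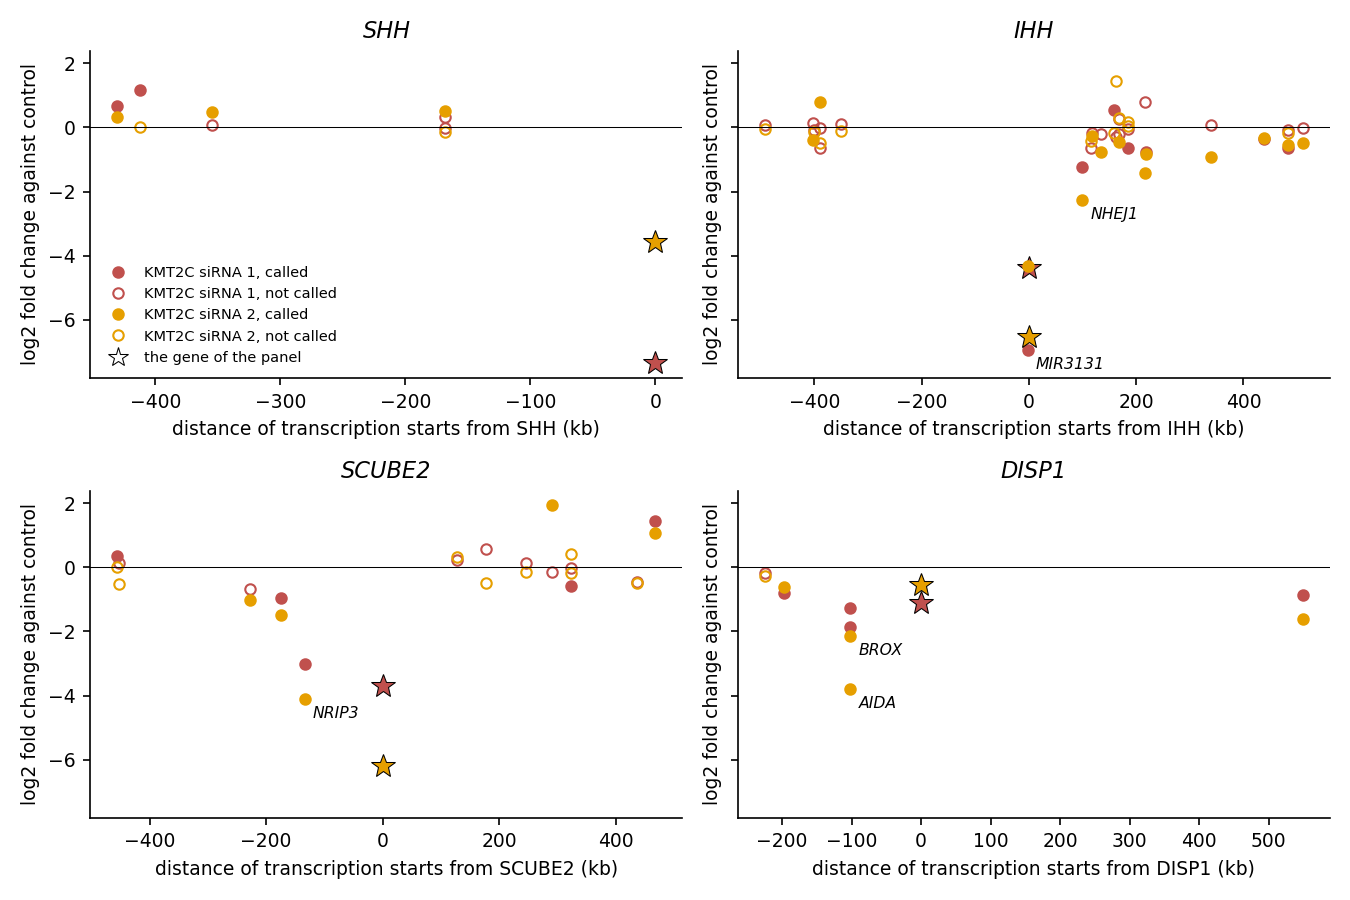
Log2 difference from control (edgeR) of tested genes within 500 kb of SHH, IHH, SCUBE2 and DISP1, against the distance of their transcription starts in kb, positive toward higher coordinates; stars are the gene of the panel and filled points have an adjusted p of 0.05 or less. NHEJ1, NRIP3, AIDA and BROX lie below 0 with both siRNAs, and no filled point lies below 0 beside SHH.

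Of the 22 tested neighbours of DHH, KMT2D, a close relative of KMT2C 25.9 kb away, fell with siRNA 2 (-0.58 ± 0.08, adjusted p = 0.000355) and was at 0.01 ± 0.08 with siRNA 1 (adjusted p = 0.907), and siRNA 1 minus siRNA 2 was 0.59 ± 0.08 (adjusted p = 0.000481). WNT10B, a WNT ligand in the same window, rose by 0.94 ± 0.16 and 1.92 ± 0.16 (adjusted p = 0.00184 and 2.37e-05). Next to SMO, TSPAN33 rose by 0.75 ± 0.06 and 0.81 ± 0.06 (adjusted p = 5.23e-05 and 1.49e-05). Of the 13 tested neighbours of SMO, 6 rose and 1 fell with siRNA 1, and 5 rose and 1 fell with siRNA 2. The 2 tested neighbours of PTCH1, FANCC and ERCC6L2, passed no threshold, and GLI3 had no tested neighbour.

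The genes whose pattern was most like that of each ligand were ranked by Pearson's r of the same scaled log2 counts over the 9 libraries. For SHH they included TMPRSS2 (0.9968), FAM43A (0.9967), EPB41L4B (0.9953) and DHX29 (0.9951). TMPRSS2, the androgen-responsive protease gene whose promoter drives ERG in this line, averaged 19.3 ± 0.655 FPKM with siRNA 1, 43.0 ± 0.451 FPKM with siRNA 2 and 96.4 ± 1.86 FPKM in control cells, so it shared the order of SHH over a much smaller range.

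For IHH the closest were KIF13B (0.9977), SLC37A1 (0.9970), HGD (0.9967), MEAF6 (0.9963) and CMTM8 (0.9960), and for SCUBE2 they were SLC37A1 (0.9996), SLC44A4 (0.9982), NMT2 (0.9980), KIF13B (0.9971) and RWDD2A (0.9968). SLC37A1 and KIF13B stood in both lists, and none of the 5 genes nearest to SHH stood in either. SLC37A1, a sugar phosphate transporter, averaged 5.86 ± 0.496 FPKM with siRNA 1, 3.10 ± 0.0291 FPKM with siRNA 2 and 16.3 ± 0.865 FPKM in control cells. With 3 groups that stand apart, such values of r reflect mainly the 3 group means.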

How the data were processed

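The table of 60612 genes in 9 libraries holds estimated counts, deposited by the authors as whole numbers that were not normalized, and FPKM calculated by the authors, both per the file headers, with genes without counts listed at 0.0001. Low counts pile up at multiples of about 4, so 1 fragment is worth close to 4 counts. Expected counts were rounded before the test, which changed no value. Bowtie 0.12.2 and the builds mm8 and hg38 are named without a role, per the submitters' processing notes. For the counting tool and its use of strand: not given in the sources used here. The word retinal in the design text has no counterpart in the labels. The photoreceptor genes CRX and RCVRN were at 0 in all libraries. Among the 5 retina genes checked, PDE6B averaged 0.756, 0.648 and 0.0921 FPKM and NRL 0.141, 0.283 and 0.107 FPKM with siRNA 1, with siRNA 2 and in control cells. Of the gene identifiers, 58394 are in GENCODE 29 on GRCh38 and 99.961% of these overlap their place there.

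Genes at 1 FPKM or more in 3 or more libraries (12830) entered edgeR 4.0.16 (R 4.3.3) with TMM factors and its quasi-likelihood test, fitted with 1 mean for each group over the 9 libraries, 2-sided, with Benjamini-Hochberg adjustment over all genes tested and a threshold of 0.05. The SE is the log2 difference over the square root of F. Values for genes below this filter come from the same fit on the 21150 genes kept by filterByExpr. On simulated counts for siRNA 1 against control (12830 genes), 11.9% of changed genes were recovered at a log2 size of 0.5, 62.7% at 1 and 89.4% at 2. The simulation left 12630 genes unchanged, whereas 41.7% of genes were called in the data. As the adjustment depends on how many genes change, these shares do not give the recovery in the data.

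The 9 genes and the lists were chosen with earlier results of these data known. Other genes named are GLI1, GLI2, HHIP, SUFU, up to 4 genes per list with the smallest adjusted p, the nearest tested gene on each side within 500 kb and up to 2 neighbours with the largest called change, and the 5 genes most like SHH, IHH and SCUBE2. Some genes that the rule takes are left out of the text and not reported here. BOC, BTRC, CSNK1A1, DISP2, SCUBE1, SCUBE3 and EN2 were added after their values were seen. Alternatives were RLE scaling, DESeq2 1.42.0, other filters, counts divided by 4, limma 3.58.1 on log2(FPKM + 1) and log2(FPKM + 0.1), fits of the groups compared alone, the replicate number as a block, and each library left out.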

Additional observations from a re-analysis of the deposited data

Results flagged for a closer look

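GRK2, a receptor kinase that phosphorylates SMO, was called in opposite directions by the siRNAs, with a called difference between them. Its level was 47.9, 46.3 and 44.5 FPKM with siRNA 1, 32.0, 33.0 and 34.2 FPKM with siRNA 2, and 40.2, 39.0 and 37.7 FPKM in control cells. The log2 difference from control was 0.22 ± 0.05 with siRNA 1 and -0.29 ± 0.05 with siRNA 2 (edgeR, adjusted p = 0.0109 and 0.002). The test of siRNA 1 against siRNA 2 gave 0.52 ± 0.05 (adjusted p = 0.000136), higher in each siRNA 1 library. The cause was not tested.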

How the results depend on the processing

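No count of calls moved by more than 1.5 times, and no called value of a gene followed through the alternatives changed direction. BOC, BTRC, CSNK1A1, DISP2, SCUBE1, SCUBE3 and EN2, added later, were not followed through them. Nor were the genes picked as most like SHH, IHH and SCUBE2. In all, 3007 values were kept, 80 lost the call, 38 gained it and 19 moved by more than the spread. For the 9 genes, kept means a shift smaller than the spread, whatever the side of the threshold. For other named genes it means the same side of the threshold, and values not called could still change direction. With each library left out in turn, 4511 to 5082 genes were called for siRNA 1 against control, 5508 to 6706 for siRNA 2 against control and 4109 to 4981 for siRNA 1 against siRNA 2. In the same order, called pathway genes outside the 9 numbered 20 to 26, 30 to 37 and 29 to 34, and neighbours 27 to 35, 34 to 42 and 28 to 35. Calls among the 6 tested of the 9 genes numbered 5 to 5, 5 to 5 and 3 to 4. As the set was chosen on these contrasts, nothing is read from calls among the 9 genes. With log2(FPKM + 1), which understates changes of low genes, SHH was at -5.86 with siRNA 1 and -3.35 with siRNA 2, IHH at -3.73 and -4.71, SCUBE2 at -3.24 and -4.48, PTCH1 at -0.58 and -0.54, and GLI3 at -1.20 and -1.51. On that scale siRNA 1 minus siRNA 2 was -2.50 for SHH, 0.98 for IHH and 1.24 for SCUBE2.

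The replicate numbers share no more than a name in these data: the correlation of deviations between same-numbered libraries ran from -0.0688 to 0.0393, and 0 of 9 libraries correlated best with their own number. With the replicate block 5007, 6070 and 4766 genes were called, against 5349, 6328 and 5068 without it. With the block, 23, 35 and 31 pathway genes and 33, 37 and 34 neighbours were called. Of the 6 tested among the 9 genes, 5, 5 and 4 were called, from which again nothing is read.

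Calls lost when some single library was left out include ULK3, KIF3A and SNAI1 with siRNA 2, JAG2, CALU and FLNC with siRNA 1, and AHCYL2 with either. Depth leaves DHH, GLI1 and HHIP, at no more than a few fragments per library, without a test, and HHAT, DISP1 and GLI2 to the looser filter alone.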

Other observations

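Other genes taken by the naming rule gave the following values, from edgeR against control with siRNA 1 first. ULK3, a kinase of GLI proteins, stood at 0.65 ± 0.07 and 0.24 ± 0.07 (adjusted p = 0.00017 and 0.0199), and ARRB2, an arrestin, at 0.46 ± 0.11 and 0.46 ± 0.11 (adjusted p = 0.00918 and 0.00766). Among cilium genes, KIAA0586 rose with each siRNA (0.48 ± 0.08 and 0.75 ± 0.08, adjusted p = 0.00208 and 0.000115) and IFT52 with siRNA 2 (0.79 ± 0.08, adjusted p = 8.07e-05). IFT57 rose with siRNA 1 (0.56 ± 0.09, adjusted p = 0.00127). Among genes known as targets elsewhere, FOXM1 fell with siRNA 2 (-0.88 ± 0.17, adjusted p = 0.00242), and SNAI1 stood at 1.25 ± 0.37 (adjusted p = 0.0209, or 0.0704 without replicate 1 of siRNA 2).

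Next to HHAT, SERTAD4, 81.6 kb away, rose with siRNA 1 (1.25 ± 0.12, adjusted p = 0.00012) and stood at -0.33 ± 0.12 with siRNA 2 (adjusted p = 0.0552). SUSD4, beside DISP1, fell with each siRNA (-0.85 ± 0.12 and -1.61 ± 0.12, adjusted p = 0.000628 and 1.19e-05). LMBR1L, the nearest tested gene to DHH, stood at -0.36 ± 0.14 and 0.26 ± 0.14 (adjusted p = 0.0711 and 0.163). KRT14, a basal epithelial keratin, averaged 7.12 ± 0.795 FPKM with siRNA 1, 0.810 ± 0.0848 FPKM with siRNA 2 and 2.48 ± 0.136 FPKM in control cells (SD, n = 3), while KRT5 was at 0 in siRNA 2 and control libraries.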
